A study of Mus musculus with 211 samples.

Results

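Among the single cells sorted from adult Lfng-EGFP cochleae, 51 of the 164 cells with at least 50000 reads on genes held transcripts of primary granule precursors, and they are called members here. They were selected on measured values: a cell was taken when at least 3 of 7 genes (Elane, Mpo, Prtn3, Ctsg, Ms4a3, Fcnb and Myb) had at least 10 reads each. The remaining 113 cells of that depth are the other cells, and 211 cells were deposited in all. Every cell came from CD1 mice that carry the Lfng-EGFP transgene, in which a bacterial artificial chromosome with regulatory sequence of Lfng drives EGFP. The mice were P60 (8 captures) or P120 (4 captures), and the labels name no treatment. Cells with GFP were sorted by FACS and captured on the Fluidigm C1, a chip that isolates single cells, with 1 library of full-length cDNA per cell and no molecular identifiers. A capture pooled 4 mice, so the capture was the replicate. The labels call every cell an adult cochlear supporting cell.

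Neutrophils are made in the bone marrow in steps that can be read from their granule transcripts. Promyelocytes transcribe the primary (azurophil) granule proteins, among them neutrophil elastase, myeloperoxidase, proteinase 3 and cathepsin G, and they still divide. Myelocytes and metamyelocytes then transcribe the specific granule proteins such as lactoferrin and the cathelicidin Camp, and band and segmented neutrophils transcribe the gelatinase granule genes and the receptors of mature cells. Basophil precursors share some of these genes, Mpo and Ctsg included, early in their development, and later carry their own proteases such as Mcpt8 and Prss34.

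The genes that chose the cells lie on 5 chromosomes. Prtn3 (chr10:79874476-79883174) and Elane (chr10:79886247-79888215) are neighbours on the + strand of GRCm38, with 3072 bases between them and 2637 bases between Elane and Cfd, which encodes the serine protease adipsin. The promoters of the 4 serine protease and peroxidase genes follow because they encode granule enzymes among the rule genes. They are the RefSeq sequences on GRCm38 from 250 bases before to 50 bases after the start, 5′ to 3′ on the strand of the gene. The RefSeq start can lie inside the gene interval given above, and the whole Prtn3 window does. Capitals mark CAACNG (the core that MYB binds), GAGGAA (PU.1) and TTGCNNAA (C/EBP), searched on both strands.
Elane (chr10:79886062-79886361, + strand): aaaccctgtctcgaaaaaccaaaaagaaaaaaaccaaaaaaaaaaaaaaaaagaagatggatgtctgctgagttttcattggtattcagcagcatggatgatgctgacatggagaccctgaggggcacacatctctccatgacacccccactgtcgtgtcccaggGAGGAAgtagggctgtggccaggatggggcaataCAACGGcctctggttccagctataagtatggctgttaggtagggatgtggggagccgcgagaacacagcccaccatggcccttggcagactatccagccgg
Prtn3 (chr10:79879417-79879716, + strand): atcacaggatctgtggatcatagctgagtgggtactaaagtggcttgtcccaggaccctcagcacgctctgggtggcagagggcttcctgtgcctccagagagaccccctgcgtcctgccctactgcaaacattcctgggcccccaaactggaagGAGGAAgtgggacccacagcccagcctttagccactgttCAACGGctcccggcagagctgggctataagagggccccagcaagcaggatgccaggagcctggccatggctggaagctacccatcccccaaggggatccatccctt
Ctsg (chr14:56102525-56102824, - strand): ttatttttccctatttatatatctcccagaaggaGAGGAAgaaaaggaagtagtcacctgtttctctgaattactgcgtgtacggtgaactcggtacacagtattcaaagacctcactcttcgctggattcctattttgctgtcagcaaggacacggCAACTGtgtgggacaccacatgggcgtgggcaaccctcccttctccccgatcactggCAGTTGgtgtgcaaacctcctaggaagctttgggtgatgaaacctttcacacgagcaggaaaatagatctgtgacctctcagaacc
Mpo (chr11:87793534-87793833, + strand): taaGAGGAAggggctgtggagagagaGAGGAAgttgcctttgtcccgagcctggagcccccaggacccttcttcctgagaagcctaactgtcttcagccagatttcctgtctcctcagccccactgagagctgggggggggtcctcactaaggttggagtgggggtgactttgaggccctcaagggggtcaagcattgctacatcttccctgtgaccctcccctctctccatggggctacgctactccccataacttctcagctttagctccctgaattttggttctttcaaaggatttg
Elane and Prtn3 each held 1 CAACNG and 1 GAGGAA, Ctsg held 2 CAACNG and 1 GAGGAA, and Mpo held 2 GAGGAA. TTGCNNAA was in none of these 4 windows, while Ms4a3 held 1 and Fcnb held 2 of them. Of 32851 promoters of the same length, 35.02% held CAACNG, 28.3% GAGGAA and 10.8% TTGCNNAA, so each motif is common, and a match is a description of the letters only.

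The members differed widely in how many reads of the 7 genes they held, and these values, which the rule used, are given without a test. Elane, neutrophil elastase, had a median of 78 reads in the members and reached 92762, with 20 members at 1000 reads or more and 2 members without a read. Mpo, the peroxidase that makes hypochlorous acid, had a median of 845 reads and was the gene that the largest number of members (44 of 51) held at 10 reads. Ms4a3, a membrane protein of granulocyte and monocyte progenitors, was held by 41 members, Myb, a transcription factor of dividing progenitors, by 37, Fcnb, a ficolin, by 35, Ctsg, cathepsin G, by 33 and Prtn3, proteinase 3, by 26. All 7 genes reached the minimum in 15 members, while 12 members passed with exactly 3. Of the other cells, 92 held none of the genes at 10 reads, 8 held 1 and 13 held 2.

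The other cells were not empty of these transcripts. At least 1 read of Elane was present in 60.2% of them and of Mpo in 61.9%, with a median of 1 read for each, a highest value of 21 reads for Elane and 33 for Mpo. Prtn3 and Ctsg reached at most 4 and 5 reads. Single other cells ran higher for Fcnb, Ms4a3 and Myb, up to 5081, 1515 and 1394 reads. These genes had 6, 3 and 5 other cells at 100 reads or more. Across the 12 cells just inside the rule, Elane had a median of 12.5 reads and Prtn3 of 1.5, and across the 13 just outside it, 8 and 2. The median depth was 1325740 reads in the former and 1848400 in the latter. A higher minimum of 100 reads in 3 genes was reached by 30 members, and the other 21 members lay partly within reach of the levels seen in the other cells. When every cell was thinned at random to 50000 reads before the rule was applied, 29 cells passed, all of them members.

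**Figure D1:**
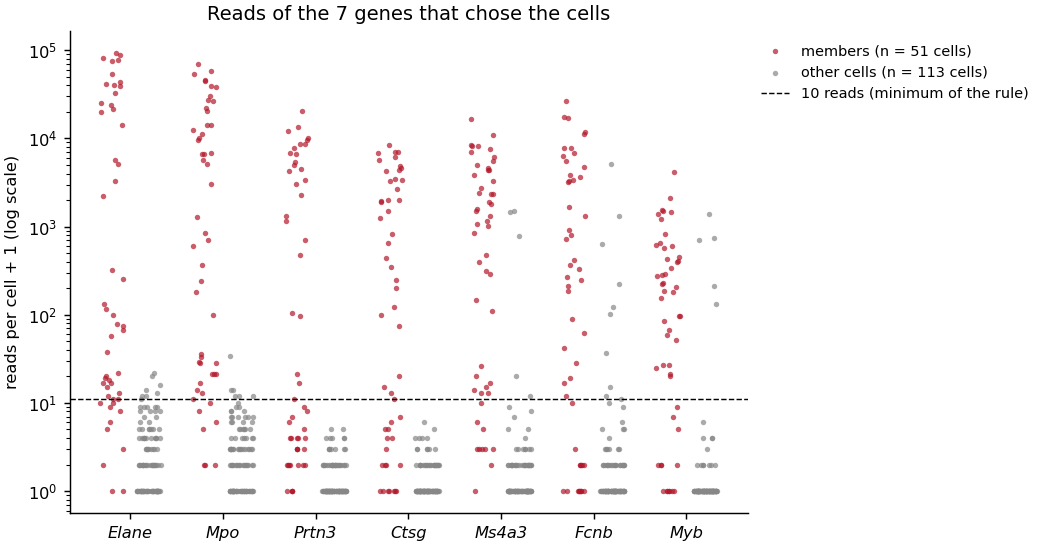
Reads of each rule gene per cell (reads + 1, log axis) in the 51 members and the 113 other cells, with 1 point per cell and the 10 read minimum as a dashed line. Members spread from 0 reads to 92762 reads of Elane, and the other cells stay at or below 21 reads of that gene. For Fcnb, Ms4a3 and Myb, other cells reach 5081, 1515 and 1394 reads.

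The 7 genes were not read in the same proportions in all members. Across the 51 members, the CPM (reads of a gene scaled to the cell's total on genes) of Elane and Prtn3 ranked alike (Spearman's rho 0.85), as did Mpo and Ctsg (0.86), while Ctsg and Fcnb did not (0.060). These coefficients describe cells that share captures and depth. With reads thinned to 50000 per cell they were 0.86, 0.82 and 0.077.

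Other granule and lineage genes divided the members into 3 kinds, again as a description, since the cells were divided by measured values. A cell is said to hold a list when at least 3 of its genes have at least 10 reads. The basophil and mast cell list was held by 17 members and by 1 of the 113 other cells. In these 17 members the median CPM was 21377 for Mcpt8, a basophil protease, 19647 for Prss34, another, and 1929 for Gata2, a transcription factor of the basophil and mast cell lineages. Their median Elane was 10.8 CPM, whereas their median Mpo was 643 CPM and Ctsg 367 CPM. These medians do not describe all of them: 5 of the 17 had Mcpt8 of 12.1 to 121 CPM, and 1 of those 5 had Elane at 14098 CPM.

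A second kind held no basophil list and had at least 100 reads in 3 or more rule genes, which was true of 20 members. Their median Elane was 17810 CPM, Mpo 13800 CPM and Fcnb 2449 CPM, and their median Mcpt8 was 0.149 CPM. These medians do not describe all 20 either: 18 had at least 100 reads of Elane and 18 of Mpo, while 20 had them for Prtn3. The lowest Elane was 3.06 CPM, in a P60 cell. Ngp, a specific granule gene, had a median of 3989 CPM there and Retnlg, a gene of late neutrophils, one of 9.91 CPM. The 14 remaining members had neither. Their median Elane was 13.9 CPM, but their median was 40122 CPM for Ngp and 18222 CPM for Camp, against 232 and 22.5 CPM in the other cells, and 397 CPM for Retnlg against 3830 CPM.

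**Figure D2:**
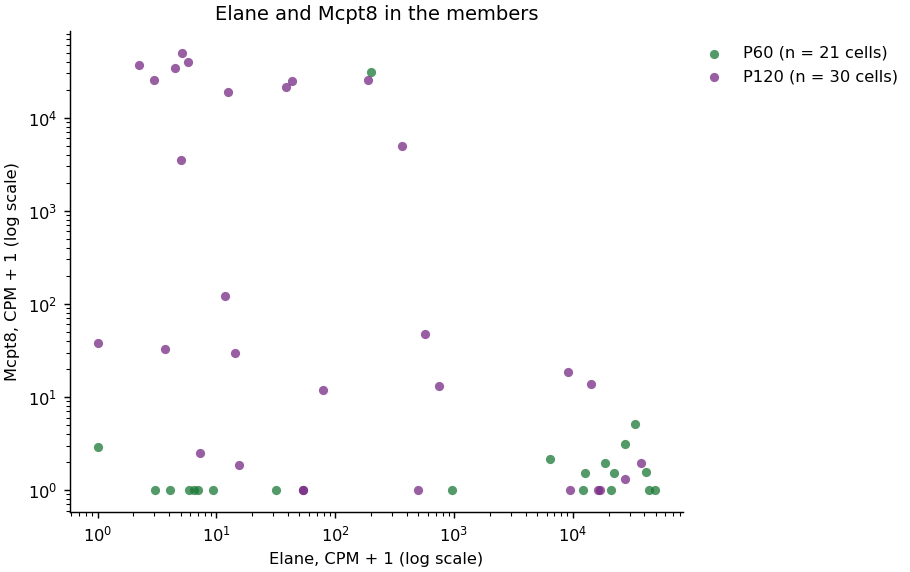
Elane against Mcpt8 in the 51 members, both as CPM + 1 on log axes, with 21 P60 cells and 30 P120 cells in 2 colours. Every cell above 1000 CPM of Mcpt8 lies below 1000 CPM of Elane.

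The label of supporting cell was checked against its markers. Sox2 had no member at 10 reads, nor did Fgfr3, Prox1, Gjb6 or Otogl, and Tecta, Otog and Gjb2 had 1 each and Tectb 2. Of the 113 other cells, 0 held Sox2 or Fgfr3 at 10 reads. Prox1 and Gjb6 had 1 each there, Otogl and Gjb2 2 each, Otog 3, Tecta 4 and Tectb 5. S100a1, by contrast, had at least 10 reads in 27 of 51 members and 11 of 113 other cells (log2 fold change 1.33, adjusted p = 0.692, edgeR quasi-likelihood test), and Jag1 in 9 members and 13 other cells. Of the 15 supporting cell genes, 3 had enough reads to be tested: Lfng, Jag1 and S100a1. Lfng, the gene whose sequence drives the transgene, had at least 10 reads in 29 of 51 members and in 55 of 113 other cells, and was 1.74, 21.1 and 56.8 CPM in the lowest, median and highest of 6 captures in the members against 5.77, 28.3 and 53.6 CPM in the other cells (adjusted p = 0.643, edgeR quasi-likelihood test). The whole list summed to a median of 85.2 CPM in the members (range 0 to 1425) and 35.1 CPM in the other cells (0 to 54900). It was held by 8 members and 7 other cells. No member held the hair cell list, and Atoh1, Slc26a5, Tmc1 and Slc17a8 were at 0 in every member, while Myo7a had at least 10 reads in 6 members and in 0 of 113 other cells. Most defining supporting cell markers were thus absent or rare in the members and in the other cells. Lfng, S100a1 and Jag1 were read in both classes, and the members are named here by their transcripts.

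Members came from 7 of the 12 captures. At P120, 18 of 31 cells were members in capture 28 (58.1%, exact Clopper-Pearson 95% interval 39.1 to 75.5%), 9 of 21 in capture 32, 3 of 21 in capture 38 and 0 of 11 in capture 36 (upper limit 28.5% by the same interval). At P60, 11 of 22 were members in capture 40, 6 of 18 in 9c and 3 of 18 in 31, while captures 19c, 20c and 21c held none in 7, 7 and 5 cells. These intervals cover counting error only. Over the captures with at least 3 such cells, the share averaged 28.8% ± 26.4 (SD, n = 4) at P120 and 16.7% ± 21.1 (SD, n = 6) at P60. The ages overlapped widely, and the difference of 12.1 percentage points was within the spread between captures (exact two-sided permutation test, p = 0.429 over 210 arrangements, adjusted p = 0.429 over 6 exact tests). The P60 captures without members were all in 1 sequencing run, which held P60 captures only, and over the captures of the other runs alone the difference was -4.53 points (exact permutation p = 0.8).

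The sequencing run moved with the share inside captures. Captures sequenced in 2 runs gave 29 members of 58 cells in the run with a median of 1809760 reads per cell and 15 of 66 in the run with a median of 946831. In capture 32 the members were 8 of 10 cells in the first run and 1 of 11 in the second, in capture 40 they were 11 of 17 and 0 of 5, and in capture 28 they were 4 of 5 and 14 of 26. Each cell is listed under 1 run, so the runs hold different cells of a capture. How cells were assigned to the runs is not given in the sources used here, and the part of the run in the share was not tested.

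**Figure D3:**
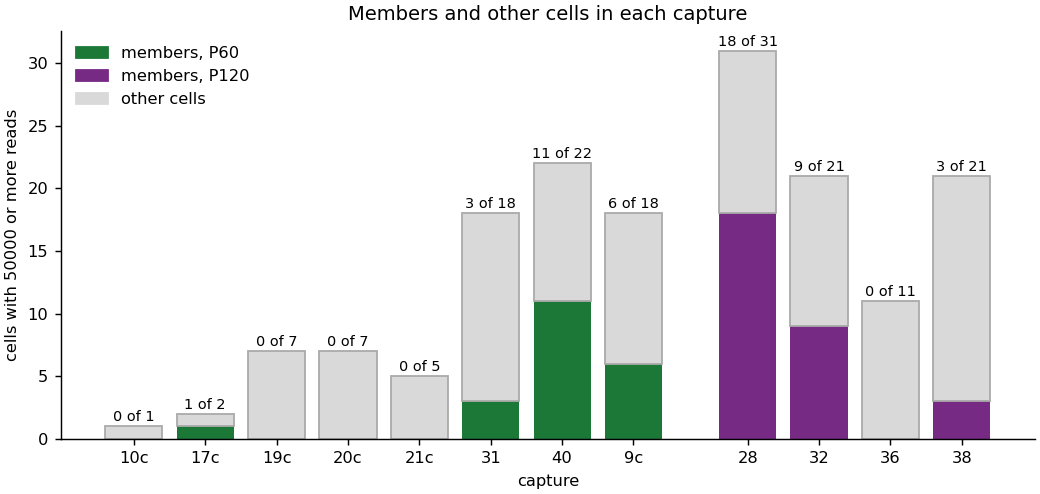
Number of cells with at least 50000 reads in each capture (vertical axis), by capture and age, with members in colour and other cells in grey. Labels give members of cells, from 0 of 1 in capture 10c to 18 of 31 in capture 28.

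The kinds of member were spread unevenly over the ages. Of the 17 members with the basophil list, 16 were P120 (9 in capture 32, 5 in 28 and 2 in 38) and 1 was P60, in capture 9c. Of the 20 rich in primary granule genes, 14 were P60 and 6 were P120, and of the 14 remaining members 6 and 8. The 20 exclude 10 members with the basophil list that also had 100 reads in 3 or more rule genes. Over all 30 members at that level, 15 were P60 and 15 were P120. These are cells of a few pooled captures, so the counts carry no test.

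Members were compared with the other cells of the same captures in the 6 captures with at least 3 cells of each class (28, 31, 32, 38, 40 and 9c). The rule did not use these measures, apart from reads on genes and the ratio built on them. Members were read for more genes at equal depth. With each cell thinned to 50000 reads, members had 2202, 2340 and 3289 genes with a read in the lowest, median and highest capture, and the other cells 754, 1146 and 1286. The classes did not overlap, and the difference was 1493 ± 445 genes (SD, n = 6), with members higher in 6 of 6 captures (exact two-sided sign-flip permutation test, p = 0.0313, the smallest that 6 captures can give, adjusted p = 0.0469). Within capture and sequencing run, it was 1211 genes.

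Members were dimmer in the green channel. Their normalized GFP intensity, as deposited by the authors with its scaling not given in the sources used here, was 177, 264 and 313 in the lowest, median and highest capture against 303, 418 and 616 in the other cells. The difference was -181 ± 142 (SD, n = 6), lower in 6 of 6 captures (exact permutation p = 0.0313, adjusted p = 0.0469). By capture it ran from -439 in capture 32 to -12.6 in capture 9c. With capture 32 left out it was -130, and with medians over cells in place of means the members were lower in 5 of 6 captures (exact permutation p = 0.0625).

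**Figure D4:**
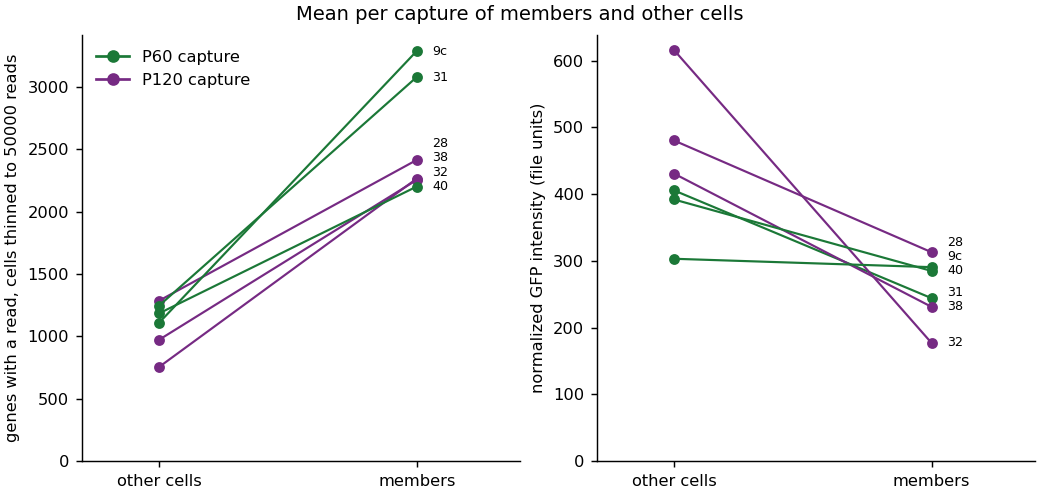
Mean of the other cells and of the members in each of 6 captures, joined by a line, for genes with a read at 50000 reads per cell and for normalized GFP intensity in the units of the file. Every line goes up on the left, and every line goes down on the right, with a change of -12.6 in capture 9c.

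Depth itself is tied to the rule by the 10 read minimum and is described only. Its permutation test was still counted among the 6 exact tests over which the p-values were adjusted. The adjusted p-values of the other measures therefore depend on it, and values without it were not computed. The mean log10 of reads on genes per cell was 6.21 ± 0.138 in the members and 5.92 ± 0.211 in the other cells (SD, n = 6 captures), a difference of 0.288. Reads on genes divided by the uniquely mapped reads gave 0.510, 0.684 and 0.765 in the members and 0.150, 0.546 and 0.653 in the other cells, higher in the members in 6 of 6 captures (difference 0.152, exact permutation p = 0.0313, adjusted p = 0.0469). This ratio has reads on genes as its numerator, so it too is tied to the rule, and its p-value is not independent of the choice of cells. The lowest value of the ratio, 0.150, was that of the other cells of capture 9c. That was the one capture in which every cell (19 of 19) had over 1000 reads of spike-in sequences. Reads on mitochondrially encoded genes made up 2.70% ± 1.81 in the members and 2.05% ± 1.49 in the other cells (SD, n = 6), which did not pass the test (higher in 5 of 6, exact permutation p = 0.125, adjusted p = 0.15).

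Reads were then summed over members and over other cells in each of the 6 captures and tested in edgeR with the capture as a block. The 7 rule genes are left out of every count of calls. Of 7071 other genes tested, 39 were higher in the members at an adjusted p under 0.05, or 0.552%, and 65 were lower, or 0.919%. All 39 were higher in each of the 6 captures, and 58 of the 65 were lower in each. The 65 included 9 late neutrophil genes and 5 signalling genes of mature myeloid cells. The median log2 fold change over all genes tested was 1.02, so most genes lay above 0. List values and the counts of genes above 0 that follow are to be read against this. A gene that passed the filter on its reads in the members alone has a value above 0. Why the median lay above 0 was not tested. With the same filter and the same 7071 genes, the median was -0.09 without the capture block. It was 0.53 on thinned reads and 1.86 when libraries were scaled by their totals, with 148 genes higher and 27 lower. DESeq2 called far more genes on the same sums, 2014 higher and 919 lower, with every edgeR call among them.

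The gelatinase granule and late neutrophil list was lower in the members in 9 of 16 genes tested and higher in none, with a median log2 fold change of -3.77 and all 16 values below 0. Retnlg, a resistin-like protein of mature neutrophils, was 154, 767 and 1372 CPM in the lowest, median and highest capture of the members and 2664, 10357 and 23365 CPM in the other cells. The classes did not overlap, at a log2 fold change of -4.81 ± 0.506 (SE, adjusted p = 0.000102). Mmp9, gelatinase B, was 3.37, 67.2 and 115 CPM against 468, 1484 and 2201 CPM, again without overlap (-5.49 ± 0.803, adjusted p = 0.00209). S100a8 and S100a9, the calprotectin subunits, fell by 1.76 and 2.07 on the log2 scale (SE 0.209 and 0.221), and S100a9 was read in 98.04% of members and 97.3% of other cells at 50000 reads. The calcium-binding S100a6, the chemokine Ccl6, the receptor Trem1, the formyl peptide receptor Fpr2 and the G-CSF receptor Csf3r were the other genes called. Fpr1, at the lowest value of the list, -6.04, did not pass (adjusted p = 0.0612).

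Specific granule genes were closer to the other cells. Of 12 tested, 2 fell, Mmp8, neutrophil collagenase (-4.19 ± 0.61 SE, adjusted p = 0.00208), and Anxa1, an annexin (-1.74 ± 0.339 SE, adjusted p = 0.0241), and none rose, with a list median of -1.75. Ltf, lactoferrin, was 49.1, 4664 and 9257 CPM in the members and 4382, 6312 and 7949 CPM in the other cells (log2 fold change -2.63, adjusted p = 0.178). Chil3 was at -0.42. The list was held by 48 of 51 members and 90.3% of the other cells, and the late list by 50 members and 98.2% of the other cells, so that transcripts of later stages were present in nearly all members at a lower level for the genes that passed.

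Other primary granule and protease handling genes gave 2 higher and 1 lower of 10 tested, with a median of 2.24. That median ran from 0.76 without capture 9c to 3.32 without capture 28, and it lay below the median of all genes without capture 32 (0.78 against 0.94) and without capture 38 (0.98 against 1.27). Prss57, a further primary granule serine protease, was 53.8, 216 and 370 CPM in the members against 0, 0.163 and 13.2 CPM (8.95 ± 1.96 SE, adjusted p = 0.0383), and the classes did not overlap. Calr, the chaperone calreticulin, was 462, 697 and 2545 CPM against 1.83, 25.6 and 357 CPM (5.05 ± 1.19 SE, adjusted p = 0.0498). Lyz2, lysozyme, which is made through to the mature cell, was lower at 1004, 3625 and 14673 CPM against 9416, 13202 and 14791 CPM (-2.67 ± 0.441 SE, adjusted p = 0.0077). Cst7, at the highest value of the list, 9.26, did not pass (adjusted p = 0.0927).

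Cell cycle transcripts were counted in both classes. The S phase list or the G2 and M phase list was held by 44 of 51 members (86.3%) and by 16 of 113 other cells (14.2%), and 38 members held both. In each of the 6 captures the share was higher in the members, from 66.7% against 25% in capture 32 to 100% against 6.67% in capture 31. Deeper cells reach 10 reads more readily, and members were the deeper class, so this is a description with no test. Of the 3 kinds, all 20 members rich in primary granule genes held a cycle list, as did 14 of the 17 with the basophil list and 10 of the 14 remaining.

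Of 14 S phase genes tested, 14 had values above 0, from Tyms at 1.26 to Gins2 at 9.03, with a median of 3.69. Gins2 and Mcm6 reached 10 reads in 2 of 113 other cells each, so their values rest mainly on the members. In edgeR 0 passed, while 2 passed with library totals, 1 on thinned reads and 1 when the run was added to the block, and DESeq2 called 10. Mcm6, a subunit of the replicative helicase, was 73.4, 136 and 481 CPM in the members against 0.160, 0.396 and 7.08 CPM, without overlap (7.26 ± 1.84 SE, adjusted p = 0.0588). At 50000 reads it was read in 47.1% of members and 1.77% of other cells. Pcna, the polymerase clamp, was 72.5, 189 and 437 CPM against 0.858, 14.4 and 171 CPM (2.16, adjusted p = 0.15). The G2 and M phase list had 19 genes tested, 16 of them above 0, and none passed in edgeR and 4 in DESeq2. Its median of 1.16 lay next to the 1.02 of all genes, and fell on the other side of it, 0.33 below, when the block was the capture together with its run. Bub1, a spindle checkpoint kinase, was highest at 5.58 (adjusted p = 0.303) and Nusap1 lowest at -0.33.

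The medians of the 2 lists of protein synthesis and secretion genes that follow, 4.28 and 5.36, lay above that of all genes. In the endoplasmic reticulum and secretory list 13 of 13 genes were above 0, from Sec61b at 0.85 to Pdia4 at 8.79, with a median of 4.28, and 1 passed, Calr. Hspa5, the chaperone BiP, was 515, 1643 and 2212 CPM in the members and 32.1, 241 and 483 CPM in the other cells, without overlap (2.00 ± 0.826 SE, adjusted p = 0.204). The ribosome biogenesis list had 9 of 9 above 0, from Ncl at 2.18 to Fbl at 8.19, a median of 5.36 and 0 calls, and DESeq2 called 8. Npm1, nucleophosmin, was 486, 735 and 786 CPM against 3.19, 34.3 and 219 CPM, without overlap (3.76 ± 1.17 SE, adjusted p = 0.108), and was read in 76.5% of members and 18.6% of other cells at 50000 reads.

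Signalling genes of mature myeloid cells were lower in 5 of 12 tested and higher in none, with a median of -3.39. The genes that fell were Tnfaip2 (-5.53), Clec4e, a C-type lectin (-5.09), Pirb, an inhibitory receptor (-4.71), the chemokine Cxcl2 (-3.48) and the endotoxin co-receptor Cd14 (-3.30). The lowest value, Ptgs2 at -5.76, did not pass (adjusted p = 0.11), and the highest was Tlr4 at 0.84. Immediate early genes were lower in 2 of 10, Fos (-2.39) and Zfp36 (-2.65), with a median of -2.13 and values from Atf3 at -8.19 to Jun at -0.06. Receptors for growth factors and chemoattractants were lower in 2 of 10, Csf3r (-2.82) and Ccr1 (-4.43), with a median of -2.33 and the lowest value in Csf1r at -7.08 (adjusted p = 0.202). Of the inhibitors of proliferation, 1 of 7 was lower, Btg1, at 309, 1298 and 1715 CPM against 5681, 6455 and 12114 CPM (-3.60 ± 0.459 SE, adjusted p = 0.000563), and none was higher in this fit. Trp53 had a value of 8.14 (adjusted p = 0.072), and it was called higher in edgeR with library totals, on thinned reads and without capture 28.

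**Figure D5:**
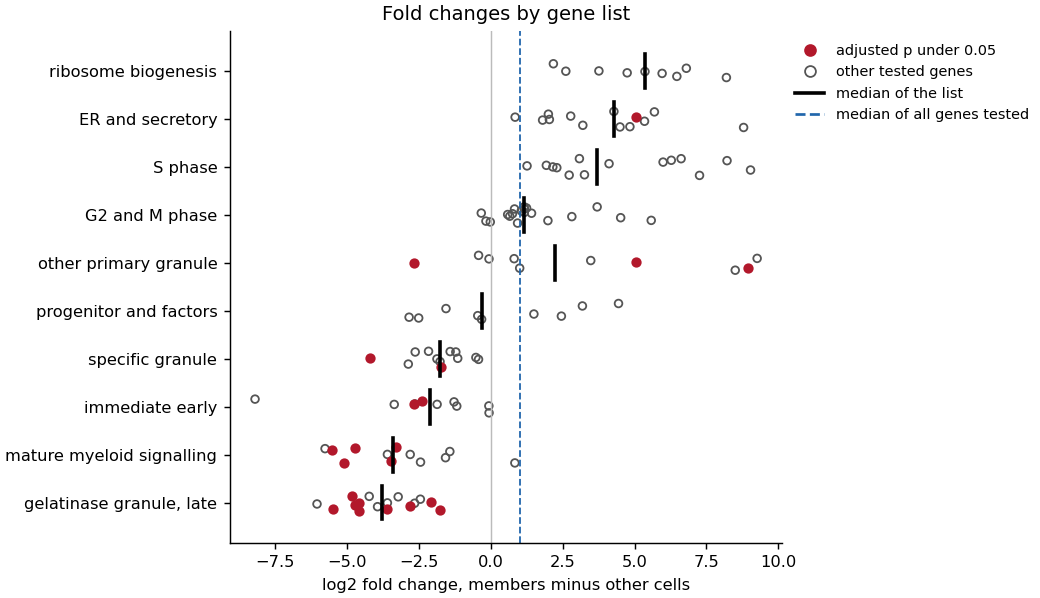
Log2 fold change (members minus other cells) of each tested gene in 10 lists, with called genes filled, the median of each list as a bar and the median of all genes tested, 1.02, as a dashed line. The late list has 9 filled points, all below 0, and the S phase list has none although all 14 points lie above 0.

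The progenitor genes and transcription factors gave no call among 9 tested, with a median of -0.32 that changed sign with 1 capture left out, from -0.72 without capture 28 to 0.88 without capture 31. Kit, the stem cell factor receptor, had a value of 4.44 (adjusted p = 0.547) and was read in 21.6% of members and 4.42% of other cells at 50000 reads. Gfi1, a repressor that acts in granulocyte precursors, was at 3.19 (adjusted p = 0.464) and Cebpb, a factor of later stages, was lowest at -2.84 (adjusted p = 0.228). Of the genes that the study examined in these cells, 2 of 13 were lower, S100a6 (-4.57 ± 0.851 SE) and Notch2 (-3.05 ± 0.657 SE, adjusted p = 0.0367), and 0 were higher. That list was chosen by the study on these samples and is not independent evidence of its direction. Notch2, a Notch receptor, was 39.3, 83.6 and 277 CPM in the members and 232, 410 and 1560 CPM in the other cells.

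The 10 highest calls by fold change included 1 predicted gene. The other 9 were Gtf2f2, a subunit of the general transcription factor TFIIF, Stom, the membrane protein stomatin, Spns3, Gart, an enzyme of purine synthesis, Mrps11, a mitochondrial ribosome subunit, Sdf2l1, a protein of the endoplasmic reticulum, Naxd, an enzyme that repairs NADPH hydrates, Mgl2, a C-type lectin, and Ccdc58. They had 13.6 to 84.1 CPM in the median capture of the members and at most 0.0379 CPM in that of the other cells. Sdf2l1 was 69.4, 84.1 and 150 CPM in the members against 0, 0.0379 and 1.39 CPM and was read in 52.9% of members at 50000 reads. Gart, Naxd and Ccdc58 had 1 read in all the other cells together, so their fitted fold changes depend on the prior count and are not given. In 14 of the 39 genes called higher, the other cells held at most 3 reads.

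Among the 10 lowest, again with 1 predicted gene, values ran from -10.8 to -7.54. Dhrs9, a short-chain dehydrogenase, was 0, 0.271 and 2.48 CPM in the members and 87.02, 354 and 551 CPM in the other cells (-10.8 ± 1.54 SE, adjusted p = 0.00185), without overlap. The others were Prr5l, which binds the TORC2 kinase complex, the adaptor Cass4, the stefin Stfa2l1, Armc7, the ectoenzyme Bst1, the RNA-binding protein Rbm47, Tpd52 and Trp53inp1, a target of p53. Trp53inp1 was 0.384, 1.94 and 218 CPM against 7.78, 480 and 2018 CPM, and these ranges overlapped, though it was lower in the members in 6 of 6 captures.

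The number of calls fell whichever capture was left out. The 39 higher and 65 lower calls became 41 in all without capture 28, 40 without 31, 34 without 32, 28 without 38, 34 without 40 and 61 without 9c. In the same order, 9, 7, 5, 4, 9 and 6 of these were higher in the members, and 32, 33, 29, 24, 25 and 55 were lower. Retnlg, Mmp9, S100a8, S100a9, Mmp8, Lyz2, Btg1 and Dhrs9 passed in each of these 6 fits. Of the 9 named genes that were higher, Mgl2 passed in 1 of these fits and each of the others in 0. Prss57 and Calr passed in 1 fit each. With capture and run together as the block, 42 genes passed, 25 of them among the calls of the capture block. The fit with run used 1 run of each capture, with 45 members and 44 other cells against 50 and 81. It tested 6075 genes against 7071, so the change in calls cannot be credited to the run alone. The 42 named genes kept their direction in every alternative that tested them.

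Between the ages, the members of P60 (captures 31, 40 and 9c) and of P120 (28, 32 and 38) were compared over these 6 captures. Of 8601 genes tested, 0 were higher at P120 and 0 were lower in edgeR, or 0% in each direction. At an unadjusted p under 0.05 there were 337 genes, and DESeq2 called 133, 64 higher and 69 lower. The list medians lay near the 0.09 of all genes tested for S phase (0.24), G2 and M phase (0.11) and the ribosome biogenesis list (0.09), with 0 called in each.

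Specific granule and basophil genes were also set side by side between the ages. All 12 specific granule genes had values below 0, with a median of -1.77. Ngp was 54629, 79289 and 86015 CPM in the 3 P60 captures and 11788, 13428 and 18423 CPM in the 3 P120 captures, without overlap (log2 fold change -2.35 ± 0.328 SE, adjusted p = 0.224). Camp was 15984, 16155 and 21120 CPM against 5373, 5583 and 7824 CPM (-1.51, adjusted p = 0.997). Of the basophil and mast cell list, 11 of 11 genes had values above 0, with a median of 3.78. Mcpt8 was 0.139, 0.425 and 4948 CPM at P60, the last in capture 9c, and 4228, 8700 and 17825 CPM at P120, so the ages overlapped (2.91 ± 2.40 SE, adjusted p = 0.997). Cd200r3 was listed at 0 reads in all 3 P60 captures and was 39.03, 215 and 230 CPM at P120. Elane was 6428, 7645 and 17494 CPM at P60 and 138, 7652 and 17575 CPM at P120, the lowest in capture 32, where 9 of 9 members held the basophil list.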

How the data were processed

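The authors deposited raw read counts per gene and cell, aligned with STAR to GRCm38, and cells with endothelial transcripts and outliers had been removed. A second table deposited by the authors gives uniquely mapped read counts, capture, sequencing run and normalized GFP intensity, a score whose scaling is not given in the sources used here. The paper gives 8 cochleae per capture and the labels between 4 and 5. Of 48709 genes, 48349 matched a symbol, and 92 spike-in sequences were left out. Cells had between 41 and 5361476 reads on genes, 47 of them below 50000.

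Members and gene lists were chosen with earlier results of these data known. Reads were summed per capture and class and tested in edgeR 4.0.16 (TMM, filterByExpr, quasi-likelihood, Benjamini-Hochberg at 0.05, capture as block) in R 4.3.3, after a test on simulated data, with DESeq2 1.42.0 as an alternative. Up to 10 genes were named in each direction by fold change (5 for age) among those called and alike in every capture, with predicted genes counted but not named, and listed genes with the extreme values or a call. Ltf, Mcm6, Pcna, Hspa5, Npm1, Gfi1, Mcpt8, Prss34, Gata2, Ngp and Camp fall outside this rule and were named after their values were seen. Single values were tested by exact permutation over captures (scipy 1.17.1, Python 3.11.15). Thinning used seed 7. No doublet caller was run, and 0 cells had counts identical to another cell. P-values measure spread between captures.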

Additional observations from a re-analysis of the deposited data

Results flagged for a closer look

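In 96 groups of captures examined, 24 had a highest or lowest capture that stood apart from the others by Dixon's criterion, which chance flags in about 1 group in 20. In the cell measures, the members of capture 28 had the highest share of reads on mitochondrially encoded genes (6.23%), and the other cells of capture 9c had the lowest share of uniquely mapped reads on genes as a ratio (0.150).

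Gene values follow as log2(CPM + 1). In the members, capture 32 was lowest for Mmp9 (2.13), S100a6 (0.76) and Tnfaip2 (0.63) and capture 31 for Btg1 (8.28), while capture 38 was highest for Prr5l (0.89) and capture 28 for Trp53inp1 (7.78). In the other cells, the genes called higher in the members stood out in 1 capture each: Ccdc58 (0.053), Gtf2f2 (0.38) and Stom (2.32) in capture 31, Gart (0.070) and Mgl2 (0.72) in 38, Mrps11 (0.80) in 9c, Naxd (0.066) in 40, and Prss57 (3.83) and Sdf2l1 (1.26) in 28. Of these, Ccdc58, Gtf2f2, Stom, Gart, Mrps11 and Naxd had 0 reads in 5 of the 6 captures of other cells. Their flags were thus fixed by the zeros, and the rate of 1 group in 20 does not apply to them. Genes called lower in the members had a low capture among the other cells: Bst1 (2.18) and Mmp9 (8.87) in 38, Csf3r (8.92) and Tnfaip2 (4.93) in 40, and Fpr2 (7.06), Mmp8 (5.99) and S100a6 (7.37) in 32.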

How the results depend on the processing

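The captures, depth and minimum of the rule limit these results, and the cause of each change was not tested. Against the 39 genes higher and 65 lower in the members, DESeq2 called 2933, scaling by library totals 175, no filter on low counts 174, thinned reads 160, captures with at least 5 cells of each class 21, a rule of 4 of 7 genes 57, members chosen on thinned reads 34 and the captures outside the P60-only run 61, the same fit as without capture 9c. Without the replicate block, 159 were called, 74 of them shared with the blocked fit. Added after the data were seen, capture and sequencing run as the replicate block gave 42, on 45 members and 44 other cells. Members without the basophil list, also added, gave 24, with 1 higher and 23 lower. The higher calls were 2 with at least 5 cells of each class, 2 with 4 of 7 genes and 1 with members chosen on thinned reads. They were 65 on thinned reads and 148 with library totals. Leaving out each capture gave 28 to 61. Between the ages, where 0 were called, DESeq2 called 133, library totals 2, no filter 65 and the P60-only run as a covariate 6, and leaving out each capture gave 0 to 6. The difference in member share between the ages turned to -4.53 points over the captures outside that run.

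Of the cell measures, leaving out each capture leaves 5, for which p cannot go below 0.0625: log10 reads then differed by 0.235 to 0.330, genes by 1355 to 1588, GFP by -215 to -130 and the ratio on genes by 0.111 to 0.171. With medians over cells, GFP differed by -194 and the ratio by 0.133 and no longer passed. Mitochondrial reads differed by 0.929 percentage points and passed, and log10 reads, described only, differed by 0.255. For members with 3 genes at 100 reads, an added setting, GFP differed by -220 and did not pass. For the 42 genes named and called, 416 of 772 repeats kept the call, 356 lost it and 0 turned direction.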

Other observations

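Ribosomal protein genes had values above 0 in 81 of 82 tested, with a median log2 fold change of 1.94 against 1.02 for all genes, and 1 passed, Rpsa. The mitochondrially encoded genes had a median of 0.71, with 0 called among 21.

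Lists of other cell types were rare among the members. The monocyte and macrophage list was held by 2 members and 5 other cells, the B lineage list by 2 and 2, the T and NK cell list by 2 and 0 and the eosinophil list by 1 and 0. No member and no other cell held the erythroid, megakaryocyte, endothelial, glia or fibroblast list. None of the genes tested from the monocyte (4), eosinophil (1), erythroid (1), B lineage (1), T and NK cell (2), endothelial (1), glia (1), supporting cell (3) and basophil (5) lists passed in edgeR. The basophil list had a median of 8.53, from Hdc, histidine decarboxylase, at -1.99 to Cpa3, a carboxypeptidase, at 9.69 (adjusted p = 0.0615), and DESeq2 called 4 higher and 1 lower. In edgeR, basophil genes were called higher in 4 of 6 tested without capture 40, 3 of 5 with library totals, 3 of 7 for members with 3 genes at 100 reads, 2 of 7 without capture 31 and 2 of 4 with capture and run as the block. Among cells below 50000 reads, 2 of 47 met the rule of the members (4.26%).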
